A study of Mus musculus with 32 samples.

Results

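The genes described here are 10 transcripts of the enteroendocrine lineage, the hormone-secreting cells of the gut epithelium: the peptide hormone precursors Gcg, Pyy, Insl5, Cck, Nts and Sst, the serotonin-synthesis gene Tph1, the granins Chga and Chgb, and the transcription factor Neurod1. They were taken by symbol from a table of 55291 gene rows, and all 10 were found there. Total RNA was sequenced from whole colon and from colon tumors of Dnase1l3 wild-type (WT) and Dnase1l3-knockout (KO) mice, in 32 libraries that fall into 8 groups. Each group holds 4 libraries, except WT tumor with 5 and KO tumor with 3. Dnase1l3 encodes a secreted DNase, and the purpose of the series was to compare the genotypes along the azoxymethane/dextran sulfate sodium (AOM/DSS) model of colitis-associated colon cancer, in which a single injection of the carcinogen AOM is followed by rounds of DSS, an agent that injures the colon epithelium, in the drinking water.

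All mice were on the C57BL/6 background, and the KO was constitutive and present in every cell (Dnase1l3-/-), written DNase MUT in the labels, against Dnase1l3+/+ (DNase WT). The D0 groups are whole colon at the basal condition, with no AOM and no DSS. The D19 groups received AOM at 8 mg/kg and 1 cycle of DSS, with 5 days of recovery, and the D80 groups received the same AOM dose and 3 cycles of DSS. The tumor groups are tumors cut from the colon at that final stage. Mice were 3 months old at the AOM injection according to the methods of the study, and the age of the D0 mice was not given. Each library is from 1 mouse, and 3 WT and 3 KO mice gave both a D80 colon and a tumor. Whole colon includes the muscle wall and the enteric nerve plexus beside the epithelium, so a transcript level here is an average over all of these cells.

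Enteroendocrine cells are rare and scattered through the crypts, and they are classed by what they secrete. L cells make proglucagon (Gcg, the source of GLP-1 and GLP-2), peptide YY (Pyy) and, in the colon, insulin-like peptide 5 (Insl5). D cells make somatostatin (Sst), an inhibitor of most other gut hormones, and enterochromaffin cells make serotonin through tryptophan hydroxylase 1 (Tph1). Cholecystokinin (Cck) and neurotensin (Nts) are known mainly from the small intestine and are also made by some colonic L cells. Chromogranins A and B (Chga, Chgb) fill the secretory granules of the whole lineage, and Neurod1 drives its differentiation. Several of these genes are not private to the lineage: some enteric neurons express Sst, Cck, Nts, Chga and Chgb.

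Hormone genes of this lineage are classic targets of cAMP signalling, and the palindromic cAMP response element TGACGTCA, bound by the factor CREB, was searched for in the RefSeq promoter windows of the members (GRCm38.p6, 250 bases before to 50 after the start). All 10 members matched a window, 13 windows in all, since Pyy, Insl5 and Tph1 have 2 each. The element occurred in 2 of the 13, those of Sst, the member whose level moved in the most comparisons, and Chgb, the member with the highest mean level in colon. These are shown, with the element in capitals, because they are the only windows of the members that hold it.
Sst: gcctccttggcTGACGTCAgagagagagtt
Chgb: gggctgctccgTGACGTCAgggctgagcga
The Sst stretch lies at chr16:23890874-23890903 on the minus strand, and its element begins 48 bases before the start. The Chgb stretch lies at chr2:132781559-132781588 on the plus strand, and its element begins 72 bases before the start. The same element was present in 588 of 32851 windows of all genes (1.79%). The shorter form TGACG, which is contained in the full element and was searched on both strands, was found in 7 of the 13 windows of the members and in 20.8% of all windows. A match is only a description of these letters, and nothing measured here bears on the binding of a factor.

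Libraries held 18951121 to 47623288 counts (median 34333250.5). Levels are given in CPM, the counts scaled to a common library size with edgeR's TMM factors. The sum of 12 epithelial markers was 8960 to 18968 CPM per library, with group means from 12723 CPM in KO D80 to 16614.6 CPM in WT D0. In KO, every D80 library (12064.5 to 13153.6 CPM) lay below every D0 library (13515 to 18925 CPM). The summed level of 10 smooth muscle markers was 7346 to 13952 CPM in WT D0 and 181 to 824 CPM in WT tumors. Dnase1l3 itself ranged from 1.79 to 10.4 CPM in WT libraries and from 0.675 to 11.8 CPM in KO libraries. These are counts over the whole gene, so they do not test the genotype labels. Of 4 pancreatic islet genes listed, Ins1 was at 0 in every library of all groups but WT D19, and Ins2 in all groups but KO D80. The others, Ppy and Iapp, had counts in every group. The sum of the 4 genes was 1.81 to 20.8 CPM per library.

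A set of 3 libraries stood apart, and they matter for these genes: KO D19 mouse 811, WT D80 mouse 581 and KO tumor mouse 544. Over 13455 protein-coding genes, their difference from the rest of their group ran with exon length, at Spearman's rho of -0.58, -0.55 and -0.36. Mitochondrial transcripts took 10.6%, 15.1% and 8.02% of their counts, against 5.09% to 7.04% in the other KO D19, 5.43% to 5.83% in the other WT D80 and 3.33% to 3.35% in the other KO tumor libraries. In both colon libraries most of the short hormone messages were high and the long granin messages low. Insl5, with an exon length of 724 bases, reached 235 CPM in mouse 811 and 207 CPM in mouse 581. Chgb, with 2740 bases, was at only 11.1 and 9.63 CPM there, when the other libraries of those groups held 53.2 to 134 CPM. Sst, as short as Insl5, was not raised in either library, at 5.94 and 7.10 CPM. Tph1, the longest member at 6172 bases, had log2 differences from the rest of the group of -0.05 in mouse 811 and -0.77 in mouse 581. Those of Cck, at 1305 bases, were 1.27 and 0.04. For the main results that rest on these libraries, though not for every value, the result without them is given too.

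**Figure D1:**
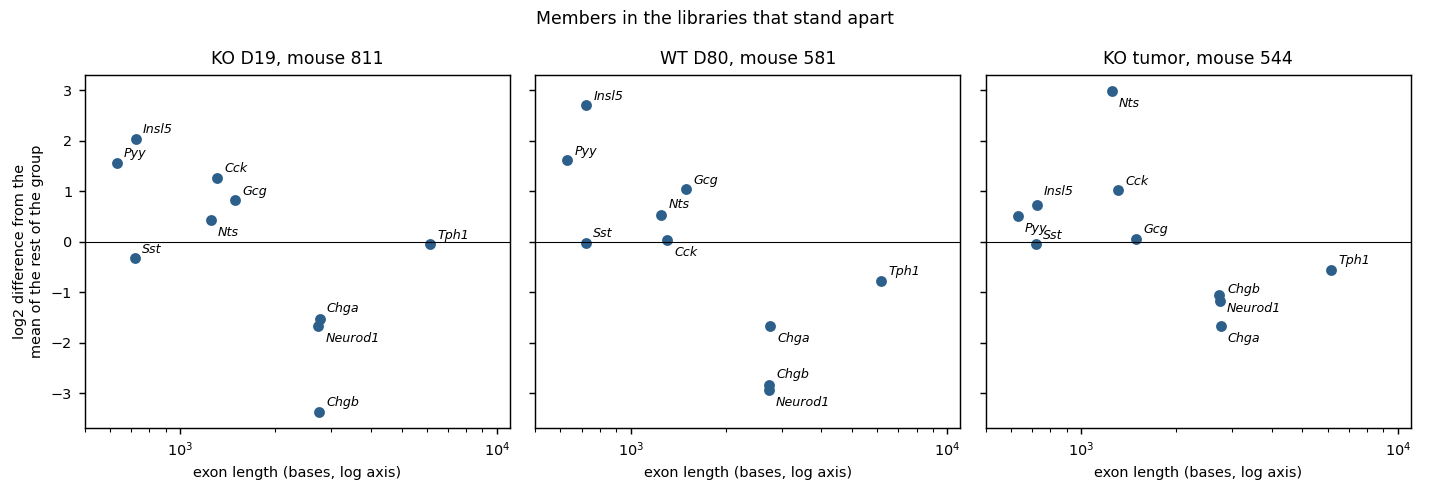
Each point is a member gene in one of the libraries that stood apart; the x axis is its exon length in bases (log axis) and the y axis the log2 difference of its level from the mean of the other libraries of the group. Insl5 and Pyy sit above 0 and Chga, Chgb and Neurod1 below 0 in all 3 panels, while Sst stays near 0.

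Per unit of message length the L-cell hormones led the panel. In WT D0 colon the mean level, in CPM per kilobase of exon, was 84.5 for Pyy, 63.4 for Insl5 and 38.2 for Gcg, followed by 33.1 for Sst. The granins Chgb and Chga were at 29.1 and 17.2 CPM per kilobase. Nts (5.52), Cck (3.36) and Tph1 (2.19) were lower on that scale, and Neurod1 was the lowest at 0.252 CPM per kilobase. On the plain CPM scale over the 24 colon libraries Chgb was the highest at a mean of 81.8 CPM, and Neurod1 the lowest at 1.06 CPM. The summed level of the 6 peptide hormone precursors was 191 ± 41.7 CPM in WT D0 and 271 ± 120 CPM in KO D0 (SD, n = 4 each). It was 225 ± 14.7 and 261 ± 165 CPM at D19, and 183 ± 141 and 84.5 ± 25.3 CPM at D80, WT first. Mouse 811 held 503 CPM on this sum, the other KO D19 libraries 140 to 225 CPM and the WT D19 libraries 209 to 244 CPM. Mouse 581 held 391 CPM, the other WT D80 libraries 77.7 to 132 CPM and the KO D80 libraries 64.5 to 121 CPM. In tumors the sum was 20.9 ± 12.5 CPM in WT (n = 5) and 21.6 ± 8.18 CPM in KO (n = 3). The tumors lay below all colon libraries on this sum, since the lowest colon library held 64.5 CPM and the highest tumor 36.4 CPM. In bulk samples such as these, fewer cells of a type and less RNA per cell cannot be told apart.

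**Figure D2:**
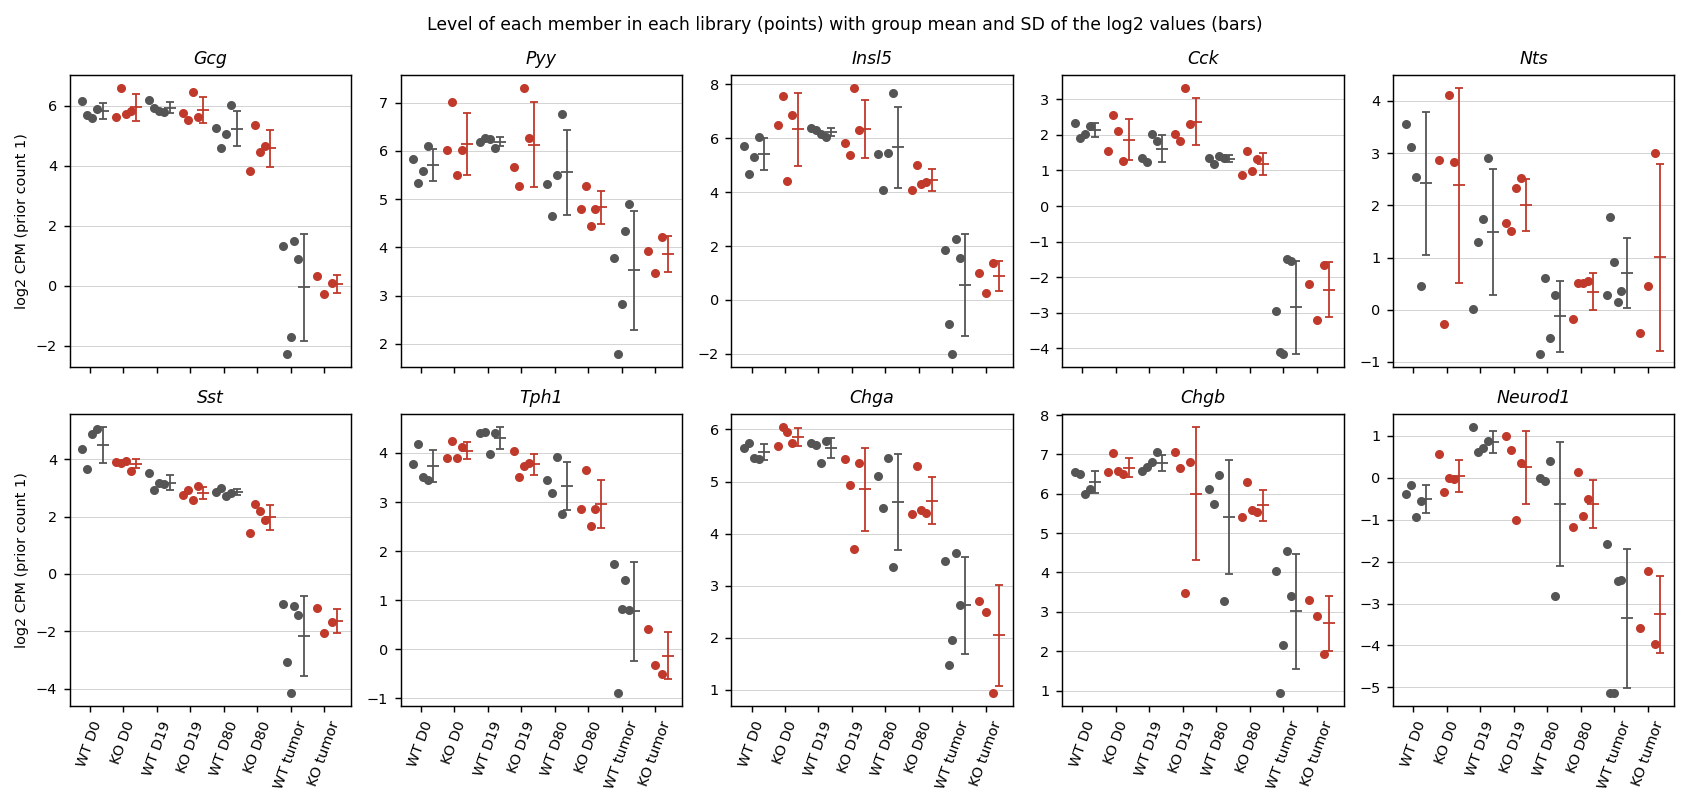
Level of each member in each library (points; log2 CPM with a prior count of 1), with the mean and SD of the log2 values of each group as bars; gray is WT and red is KO. Every member but Nts is lowest in the tumor groups, and the 2 WT tumors with 0 counts of Neurod1 appear at the bottom of its panel.

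The comparison of genotypes within a stage addresses what the loss of Dnase1l3 changes in colon and tumor. No member was called between KO and WT at any stage. The call in colon required an adjusted p below 0.05 and a fold change above 2, the study's own limits, and edgeR's quasi-likelihood test called 0% of the genes tested at D0, 0% at D19 and 0% at D80. In tumor the study's limits were an unadjusted p below 0.01 and a fold change above 2, which 0.264% of genes passed as higher in KO and 0.0422% as lower, with 0 of the 8 members tested among them. Cck and Neurod1 were too low in tumors for that test. With the prefix of the sample title, a number whose meaning the labels do not give, as a block, the tumor differences of Gcg and Insl5 turned from -0.49 and -0.25 to 2.04 and 2.43 on the log2 scale, and both were called higher in KO (edgeR, unadjusted p of 0.00605 and 0.00564, adjusted p of 0.787 each). The only prefix that both genotypes share in tumor holds WT mice 541 and 542 and KO mice 543 and 544. At an unadjusted p below 0.05 there were 4 members at D0, 2 at D19, 2 at D80 and 0 in tumor, and DESeq2 called 0 members in each of these comparisons. Over all genes tested by edgeR, 1750 of 18175, 2213 of 19545, 1049 of 18899 and 1254 of 18961 were below that limit, in the same order. No member was called in tests of whether the genotypes differed in their change from D0 to D19, from D0 to D80 or from D80 colon to tumor, by edgeR or by DESeq2. At an unadjusted p below 0.05 by edgeR there were 4, 2 and 0 members, and 1643 of 20149, 1542 of 19668 and 2385 of 20391 of all genes tested. All genes tested gave 0% called higher and 0.0298% called lower in the first of these tests, and 0% in both directions in the other two.

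Among the peptide hormones Sst was lower in KO at D0 and D80 at an unadjusted p below 0.05, and neither difference passed the test. In WT D0 colon Sst was at 20.4, 12.6, 29.2 and 33.3 CPM, and in KO D0 colon at 14.9, 14.7, 15.4 and 12.1 CPM. The KO libraries were tightly grouped and 3 of the 4 WT libraries lay above all of them, with mouse 918 inside their range. The log2 difference was -0.73 (SE 0.24, adjusted p = 0.468). At D80 Sst was at 7.19, 7.86, 6.55 and 7.10 CPM in WT and at 2.66, 5.36, 4.53 and 3.62 CPM in KO. Here the groups did not overlap, and all KO libraries were lower, with a log2 difference of -0.87 (SE 0.24) and an adjusted p of 0.681. Of all genes tested at D80, 5.25% had groups without overlap, so 1 of 10 members is not far from that share. At D0, D19 and in tumor the share was 3.41%, 9.08% and 3.25%, with 0 members. Without mouse 581 the D80 difference of Sst was -0.83. Enteric neurons are another source of Sst, and 14 of their 15 neuron and glia markers were lower in KO at D80, with a median of -0.90, 8 at an unadjusted p below 0.05, 0 called by edgeR and 1, Chrna3, by DESeq2. Their part in the Sst result was not tested. At D19 the libraries were at 11.4, 7.48, 8.91 and 8.66 CPM in WT and at 6.65, 7.53, 5.94 and 8.27 CPM in KO, and the ranges overlapped.

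Insl5 had genotype differences of opposite sign at D0 and D80, and neither passed the test. Its levels at D0 were 52.5, 25.5, 39.3 and 66.2 CPM in WT and 90.4, 191, 21.4 and 117 CPM in KO. In KO, 3 libraries lay above every WT library, and the fourth, mouse 872, was the lowest of all 8. The log2 difference was 1.21 (SE 0.50, adjusted p = 0.502), and without mouse 853, at 191 CPM, it was 0.74. Mouse 872 also had the lowest level of Hoxb13, a homeobox gene known as a mark of the distal colon, at 4.0 CPM against 127 to 154 CPM in the other KO D0 libraries and 7.37 to 55.1 CPM in WT D0. With Hoxb13 as a covariate the Insl5 difference at D0 was 0.12. With the title prefix as a block it was 1.64 and passed (adjusted p = 0.0211). Smooth muscle and enteric neuron markers also differed in level between these groups, with all 10 and all 15 lower in KO D0, at medians of -0.57 and -0.60 on the log2 scale. Of these, 6 and 8 had an unadjusted p below 0.05, and edgeR and DESeq2 called 0 of them. Their part in the Sst and Insl5 values was not tested.

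At D80 Insl5 was at 42.9, 16.8, 43.8 and 207 CPM in WT and at 17.0, 32.4, 19.8 and 20.9 CPM in KO. The value of 207 CPM is from mouse 581, the library that stood apart, and the other WT libraries overlapped with KO. The log2 difference of -1.90 (SE 0.74, adjusted p = 0.681) was -0.62 without that library and -0.38 with Hoxb13 as a covariate. Cck reached an unadjusted p below 0.05 at D19, at a log2 difference of 0.90 (SE 0.38, adjusted p = 0.434). KO mouse 811 held 9.99 CPM of Cck, the other KO libraries 3.56 to 4.88 CPM and the WT libraries 2.34 to 4.03 CPM, and without mouse 811 the difference was 0.41. In the main fits Gcg, Pyy and Nts did not reach an unadjusted p of 0.05 between genotypes at any stage. With Hoxb13 as a covariate at D19, the differences of Pyy, Insl5 and Cck were 0.78, 1.17 and 1.18, and that of Neurod1 was -1.1. None of these was called (edgeR, unadjusted p of 0.0377, 0.0124, 0.0179 and 0.0374). With the title prefix as a block Pyy had differences of 0.68 at D0 and 1.56 in tumor (unadjusted p of 0.0129 and 0.0108), neither of them called, beside the value of Gcg in tumor given above.

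The serotonin gene Tph1 and the granins differed by small amounts. Tph1 at D19 was at 21.3, 21.6, 15.8 and 21.1 CPM in WT and at 16.4, 11.4, 13.3 and 13.9 CPM in KO. In WT, 3 of the 4 libraries were above the KO range, and the log2 difference was -0.52 (SE 0.19, adjusted p = 0.415). It was -0.53 without mouse 811. At D0 Chga was 58.1 ± 6.83 CPM in KO and 47.5 ± 5.08 CPM in WT, a log2 difference of 0.30 (SE 0.12, adjusted p = 0.479). Chgb was 102 ± 18.6 CPM in KO and 79.8 ± 15.5 CPM in WT at D0, a log2 difference of 0.37 (SE 0.17, adjusted p = 0.518; SD, n = 4 each). Neither granin was separated between genotypes at a later stage.

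**Figure D3:**
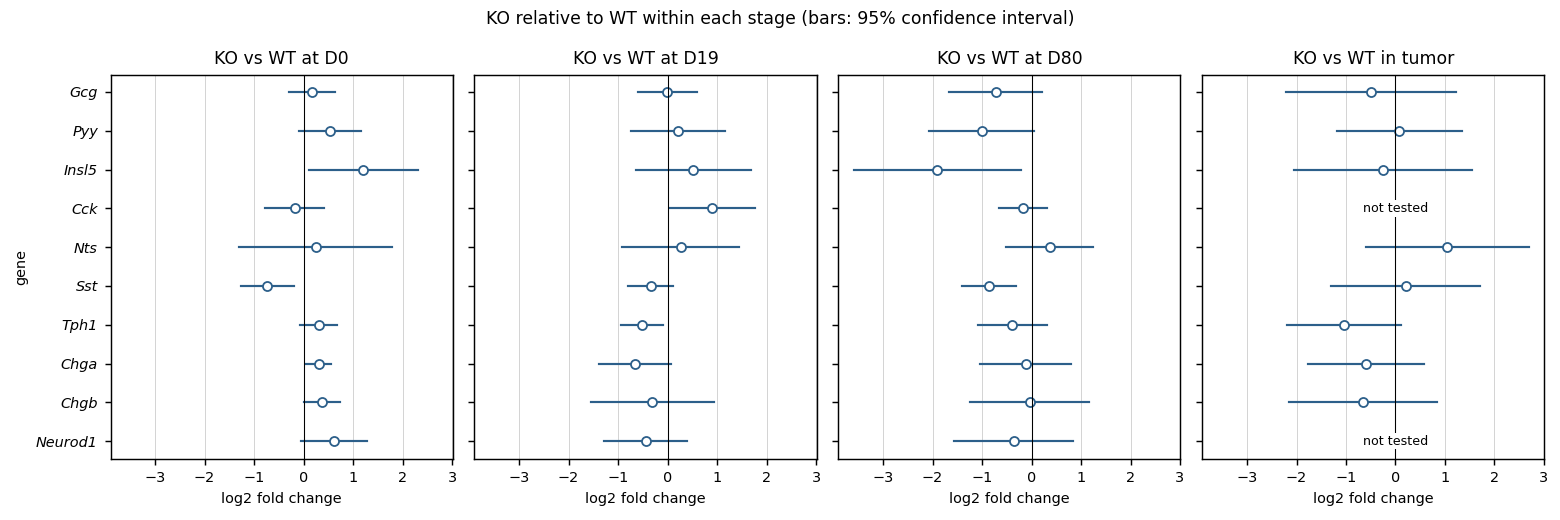
Log2 fold change of each member in KO relative to WT, with a panel for each stage and for tumor (circles, with the 95% confidence interval as bars), from edgeR. All circles are open because no member was called; the Sst intervals at D0 and D80 lie below 0, and Cck and Neurod1 were not tested in tumor.

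The second question of the design is what happens along the AOM/DSS course. No title prefix was shared between D0, D19 and D80 colon, so a change between these stages cannot be told apart from a difference between prefixes. After 1 cycle Sst was lower in both genotypes and Neurod1 was higher in WT, while no other member was called. In WT, 1 member was lower and 1 higher at D19 than at D0, where 4.04% of all genes tested were called lower and 9.33% higher. In KO, 1 member was lower and 0 were higher (0 at an unadjusted p below 0.05 in that direction, and 0 with DESeq2), where 2.52% and 8.95% of genes were called, so the members were called at about the rate of all genes. The median log2 change of the 10 members was 0.24 in WT and -0.16 in KO, with 0.0038 and 0.026 over all genes tested.

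Sst was the member that fell in both genotypes at D19. Groups without overlap were frequent in these comparisons, at 43.5% of all genes tested in WT and 19% in KO. The members were close to these shares, with 4 of the 10 in WT and 2 in KO. For Sst, the WT libraries went from 12.6 to 33.3 CPM at D0 to 7.48 to 11.4 CPM at D19, with no overlap, a log2 change of -1.44 (SE 0.27, adjusted p = 0.00214). In KO they went from 12.1 to 15.4 CPM to 5.94 to 8.27 CPM, also with no overlap, a change of -1.03 (SE 0.19, adjusted p = 0.00523). The KO value sits at the fold limit: it was -0.96 without mouse 811 and -0.99 without mouse 803, both past the p limit and under the fold of 2. Neurod1, in contrast, rose in WT, from 0.742, 0.858, 0.493 and 0.656 CPM to 2.28, 1.51, 1.62 and 1.82 CPM. All D19 libraries were above all D0 libraries, with a log2 change of 1.34 (SE 0.24, adjusted p = 0.00142). A single fit over all 32 libraries gave 1.36 with an adjusted p of 0.0834. In KO Neurod1 was at 1.46, 0.759, 0.964 and 0.958 CPM at D0 and at 1.95, 1.56, 0.473 and 1.26 CPM at D19, and the groups overlapped. The difference between genotypes in this change was -1.03 (SE 0.49, adjusted p = 0.612). Other cell types moved over the same interval. Of 10 smooth muscle markers 7 were called lower in WT and 4 in KO, and their sum went from 7346 to 13952 CPM to 4278 to 6803 CPM in WT and from 5280 to 9991 CPM to 3139 to 5808 CPM in KO. The sum of the neutrophil markers went from 3.74 to 16.7 CPM to 36.9 to 215 CPM in WT and from 3.65 to 52.8 CPM to 408 to 733 CPM in KO. Of 15 enteric neuron and glia markers, 2 were lower and 1 higher in WT and 1 was lower and 1 higher in KO. Their part in the Sst and Neurod1 results was not tested.

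The other members passed the p limit in WT with changes under a fold of 2, or did not pass it. In WT the log2 changes at D19 were 0.67 for Insl5 (SE 0.24, adjusted p = 0.041), 0.42 for Pyy (SE 0.14, adjusted p = 0.0366) and 0.52 for Tph1 (SE 0.18, adjusted p = 0.0342). For Chgb the change was 0.42 (SE 0.15, adjusted p = 0.0373) and for Cck -0.54 (SE 0.20, adjusted p = 0.049). The Insl5 and Chgb groups did not overlap. Hoxb13 rose at the same time, from 7.37 to 55.1 CPM in WT D0 to 103 to 148 CPM in WT D19. With Hoxb13 as a covariate, an alternative chosen after seeing the data, the changes of Pyy and Insl5 turned to -0.14 and -0.28, Tph1 was called at 1.15, Neurod1 stayed called at 1.76 and Sst stood at -2.54. In KO, Chga had a change of -0.89 (SE 0.33, adjusted p = 0.128) with groups that did not overlap, and without mouse 811 it was -0.63 (adjusted p = 0.0152). The difference between genotypes in the change to D19 was -0.81 for Tph1 (SE 0.26, adjusted p = 0.308) and -0.94 for Chga (SE 0.36, adjusted p = 0.47). For Cck it was 1.07 (SE 0.48, adjusted p = 0.584). Without mouse 811 these differences were -0.82, -0.69 and 0.61, and none was called.

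After 3 cycles more members were lower, 2 of the 10 in WT and 7 in KO. In WT 2 members, Sst and Nts, were lower at D80 than at D0 and none was higher, where 3.25% of all genes tested were called lower and 7.07% higher. In KO 7 members were lower and none was higher, where 7.63% and 13.4% of genes were called. Groups did not overlap for 2 of the 10 members in WT and 6 in KO, close to the shares of all genes tested, 24.1% and 49.3%. In both genotypes 0 members were higher at an unadjusted p below 0.05, and 0 by DESeq2. All 10 members had a negative change in KO, with a median of -1.28 on the log2 scale against 0.0162 over all genes tested, while in WT the median was -0.55 against 0.048. The D0 libraries are shared with the D19 comparison of the same genotype, so these are not independent comparisons. The difference between genotypes in the change to D80 was largest for Insl5 at -3.01 (SE 0.95, adjusted p = 0.56), which was -1.80 without mouse 581, and for Pyy it was -1.46 (SE 0.57, adjusted p = 0.56), which was -0.85 without that mouse.

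The L-cell hormones illustrate the KO course. Gcg was at 48.8, 96.3, 52.9 and 56.2 CPM in KO D0 and at 14.2, 40.6, 21.8 and 25.1 CPM in KO D80. The groups did not overlap, and the log2 change was -1.36 (SE 0.31, adjusted p = 0.00476). Pyy was at 65.2, 129.9, 45.1 and 65.3 CPM in KO D0 and at 27.9, 38.4, 21.7 and 27.8 CPM in KO D80, again with no overlap and a change of -1.44 (SE 0.30, adjusted p = 0.00271). Insl5 fell by 2.26 (SE 0.52, adjusted p = 0.00484), although KO D0 mouse 872, at 21.4 CPM, lay within the D80 range. In WT these 3 hormones depended on mouse 581. Gcg was at 71.0, 50.9, 47.5 and 58.8 CPM at D0 and at 38.2, 24.1, 33.2 and 64.4 CPM at D80, where 64.4 CPM is that library. Without it the WT change was -0.90 for Gcg (adjusted p = 0.00319), -0.60 for Pyy (adjusted p = 0.0471) and -0.47 for Insl5 (adjusted p = 0.322), all under the fold limit.

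Sst fell in both genotypes at D80 as well, to the levels given above for that stage. The log2 change from D0 was -1.76 in WT (SE 0.30, adjusted p = 0.00608) and -1.86 in KO (SE 0.20, adjusted p = 6.4e-05), without overlap in either genotype. With Hoxb13 as a covariate, a fit that called 0 genes of any kind in WT, the WT value was -2.62 with an adjusted p of 0.116. Nts was the most variable member at D0, at 11.7, 8.68, 5.82 and 1.34 CPM in WT and at 7.31, 0.795, 17.1 and 7.04 CPM in KO. The D80 libraries lay at 0.530 to 1.49 CPM in WT and at 0.851 to 1.44 CPM in KO, so that the lowest D0 library lay within the D80 range in WT and below it in KO, and the other D0 libraries lay above. The changes were -2.87 in WT (SE 0.64, adjusted p = 0.0193) and -2.71 in KO (SE 0.68, adjusted p = 0.00719). The WT call was lost, at adjusted p values of 0.0585, 0.0509, 0.0647 and 0.0601, without D0 mouse 851, D0 mouse 918, D80 mouse 541 or D80 mouse 555, at changes of -2.49, -2.73, -2.64 and -2.71. With Hoxb13 as a covariate it was -0.25. Cck was lower by less than a fold of 2, with changes of -0.84 in WT (SE 0.19, adjusted p = 0.021, no overlap) and -0.79 in KO (SE 0.29, adjusted p = 0.0396).

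Tph1 and the granins also were lower in KO at D80. Chga was at 51.3, 65.9, 61.6 and 53.6 CPM in KO D0 and at 20.8, 39.5, 21.9 and 21.0 CPM in KO D80, with no overlap and a log2 change of -1.21 (SE 0.21, adjusted p = 0.000893). Tph1 fell by 1.06 (SE 0.23, adjusted p = 0.00305), from 14.9 to 19.1 CPM to 5.64 to 12.5 CPM, and the change was -0.92, under the fold limit, without D80 mouse 543. Chgb changed by -0.97 (SE 0.20, adjusted p = 0.00244), just short of a fold of 2, from 89.8 to 130.1 CPM to 42.8 to 78.0 CPM, again with no overlap. It passed the limit with DESeq2 or its size factors (a change of -1.0 each) and without any one of D0 mice 852 (-1.03), 872 (-1.03) and 915 (-1.05) or D80 mouse 535 (-1.21). In WT none of these 3 genes reached an unadjusted p of 0.05 with all libraries, and Chga was at 22.6 to 43.9 CPM in the D80 libraries other than mouse 581 and at 42.9 to 53.5 CPM at D0. Other cell types moved at the same time. All 10 smooth muscle markers and 6 of 15 enteric neuron and glia markers were called lower in KO at D80, with 1 of the latter higher, and their sums went from 5280 to 9991 CPM to 2450 to 3814 CPM, and from 78.5 to 121 CPM to 74.7 to 103 CPM. Of 12 epithelial markers 1 was lower, and their sum went from 13515 to 18925 CPM to 12064.5 to 13153.6 CPM, with no overlap. Of the 6 neutrophil markers tested, 5 were higher. Their part in the members' result was not tested.

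**Figure D4:**
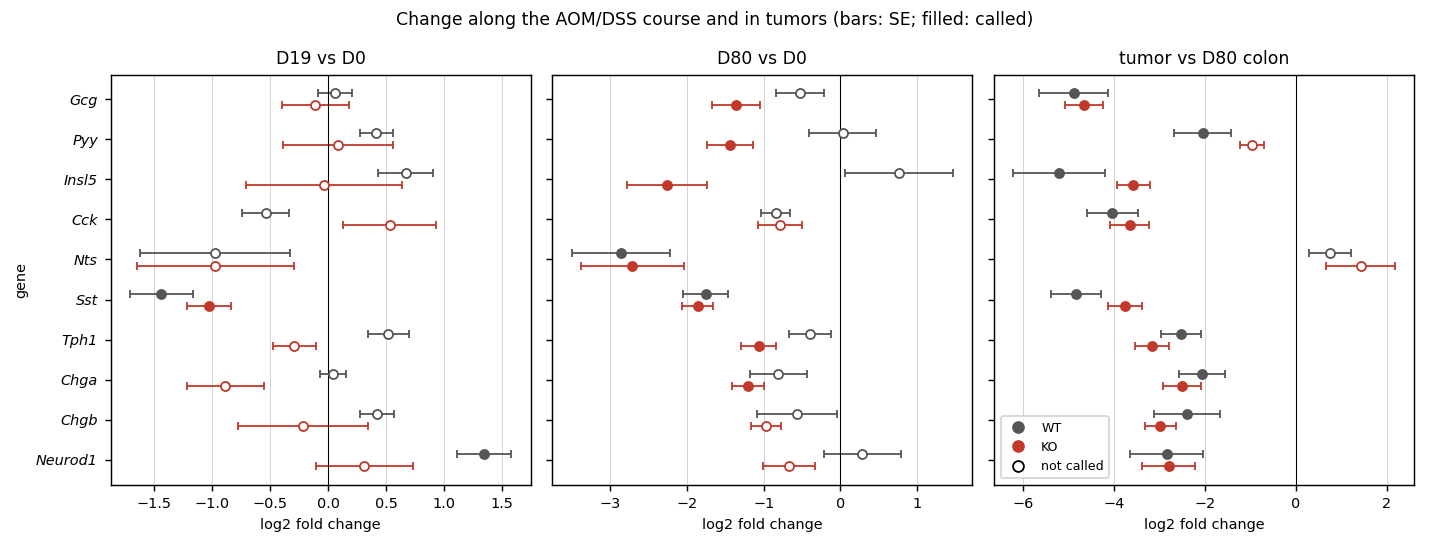
Log2 fold change of each member from D0 to D19, from D0 to D80 and from D80 colon to tumor in WT (gray) and KO (red), with the SE as bars; filled circles were called by edgeR. Filled circles are few at D19, are at 7 of the 10 members in KO at D80, and are at 9 (WT) and 8 (KO) members in tumor, with Nts on the other side of 0.

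In tumors almost the whole panel was low. Against D80 colon, 9 of the 10 members were lower in WT tumors and 8 in KO tumors, where 13.5% and 16.4% of all genes tested were called lower and 8% and 10.3% higher. The median log2 change of the members was -2.69 in WT and -3.07 in KO, against -0.0645 and 0.012 over all genes. None was called higher in WT or KO by edgeR or by DESeq2, with 0 at an unadjusted p below 0.05 in that direction. Libraries of the groups did not overlap for 5 members in WT and 9 in KO, and for 34.2% and 54.3% of all genes tested. D80 colon is shared with the D80 comparison. With the mouse as a block, for the 3 mice of each genotype that gave both samples, 9 and 8 members were called lower. Without mouse 581, 8 members were called lower in WT, and without tumor 544, 9 in KO.

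The peptide hormones other than Pyy and Nts fell the most. Gcg, from 24.1 to 64.4 CPM in WT D80 colon, was at 2.46, 0.180, 0.278, 2.78 and 1.81 CPM in WT tumors. In KO, Gcg went from 14.2 to 40.6 CPM to 1.23, 0.800 and 1.04 CPM. No tumor overlapped with colon, and the log2 changes were -4.88 in WT (SE 0.75, adjusted p = 0.00138) and -4.66 in KO (SE 0.42, adjusted p = 0.000295). Sst was at 0.457, 0.0899, 0.0278, 0.429 and 0.340 CPM in WT tumors and at 0.409, 0.213 and 0.286 CPM in KO tumors, all far below the 2.66 to 7.86 CPM of D80 colon. Its changes were -4.84 (SE 0.54, adjusted p = 0.000353) and -3.75 (SE 0.37, adjusted p = 0.000382).

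Insl5 was at 3.58, 0.509, 0.222, 4.80 and 2.93 CPM in WT tumors and at 1.99, 1.17 and 2.57 CPM in KO tumors. These lay below every D80 colon library, and the changes were -5.20 in WT (SE 1.01, adjusted p = 0.00419) and -3.57 in KO (SE 0.37, adjusted p = 0.000449). Without mouse 581 the WT value was -3.95. Cck was at 0.0278 to 0.328 CPM in WT tumors and at 0.080 to 0.286 CPM in KO tumors, against 1.81 to 2.87 CPM in D80 colon. The changes of Cck were -4.03 (SE 0.57, adjusted p = 0.000944) and -3.65 (SE 0.43, adjusted p = 0.000727). In WT tumors, the low values of these hormones came together: mice 541 and 542 held the lowest Gcg, Sst, Insl5 and Cck of the 5. These values rest on few reads, at 6 and 10 counts of Gcg, 3 and 1 of Sst, 17 and 8 of Insl5 and 1 and 1 of Cck.

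Pyy kept a measurable level in tumors. Its values were 13.7, 3.44, 7.06, 20.2 and 29.7 CPM in WT tumors and 15.1, 11 and 18.4 CPM in KO tumors, and 29.7 CPM lies within the WT D80 range, which begins at 25.2 CPM. The log2 changes were -2.05 in WT (SE 0.62, adjusted p = 0.0317) and -0.97 in KO (SE 0.26, adjusted p = 0.0183), the latter under the fold limit and with no overlap. The KO value passed the limit without tumor 544 (-1.19) or D80 mouse 543 (-1.09). The WT call was lost, at adjusted p values from 0.0516 to 0.073, without D80 mouse 555 (-2.16), D80 mouse 581 (-1.41), tumor 534 (-2.02), tumor 541 (-1.80) or tumor 542 (-1.87). Per kilobase Pyy was the highest member in tumors, at a mean of 23.5 CPM per kilobase in each genotype, with Insl5 at 3.33 in WT and 2.64 in KO.

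Nts was the exception to the fall. Its levels were 1.19, 3.38, 1.86, 1.09 and 1.26 CPM in WT tumors and 0.709, 1.33 and 7.97 CPM in KO tumors, against 0.530 to 1.49 CPM in WT D80 and 0.851 to 1.44 CPM in KO D80. The tumors overlapped with colon in both genotypes. The value of 7.97 CPM is from mouse 544, the tumor library that stood apart. The KO change was 1.43 with it (SE 0.76, adjusted p = 0.152) and -0.36 without it (adjusted p = 0.41). The KO to WT difference in tumor for Nts likewise turned from 1.05 to -0.80 without that library. Without KO tumor 527 the KO change of Nts was called higher at 1.94 (adjusted p = 0.0409).

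The granins, Tph1 and Neurod1 were lower too, by smaller fitted changes than Gcg, Sst and Insl5 in WT. Chga was at 11, 2.76, 3.84, 12.3 and 6.13 CPM in WT tumors and at 6.51, 5.60 and 1.89 CPM in KO tumors, with changes of -2.06 (SE 0.50, adjusted p = 0.0122) and -2.51 (SE 0.41, adjusted p = 0.00258). Chgb was at 16.5, 1.89, 4.45, 23.1 and 10.5 CPM in WT tumors and at 9.87, 7.36 and 3.79 CPM in KO tumors, with changes of -2.40 (SE 0.72, adjusted p = 0.0312) and -2.98 (SE 0.34, adjusted p = 0.000679). Both granins overlapped with WT D80 colon only through mouse 581, at 10.2 CPM of Chga and 9.63 CPM of Chgb, and without it the WT changes were -2.33 and -2.75. Without tumor 544 the KO changes of Chga and Chgb were -2.14 and -2.69. The WT call of Chgb was lost, at adjusted p values from 0.0534 to 0.0834, without D80 mouse 541 (-2.27), 542 (-2.42) or 555 (-2.08) or tumor 534 (-2.56), 542 (-2.19) or 579 (-2.37).

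Tph1 was at 3.30, 0.509, 1.72, 2.63 and 1.70 CPM in WT tumors and at 1.31, 0.773 and 0.679 CPM in KO tumors, below the 5.64 to 15.2 CPM of D80 colon. Its changes were -2.53 (SE 0.44, adjusted p = 0.00241) and -3.16 (SE 0.36, adjusted p = 0.000662). Neurod1 was at 0.304, 0, 0, 0.152 and 0.157 CPM in WT tumors, where the 0 counts of mice 541 and 542 allow up to 0.0899 and 0.0834 CPM (3 counts, counting error only). KO tumors held 0.0545, 0.187 and 0.0357 CPM of Neurod1. Its changes were -2.84 in WT (SE 0.81, adjusted p = 0.0245) and -2.80 in KO (SE 0.58, adjusted p = 0.00664). The WT call was lost, at adjusted p values of 0.0598, 0.0513 and 0.0706, without D80 mouse 541 (-2.77), 542 (-2.80) or 555 (-2.57).

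Tumor pieces also differed from whole colon in their other cell types. All 10 smooth muscle markers were lower in tumors of both genotypes, with median changes of -3.67 in WT and -3.97 in KO. Of 14 enteric neuron and glia markers tested, 13 were lower in WT and 11 in KO, at medians of -3.85 and -4.0. Their summed level went from 104 to 159 CPM in WT D80 to 21.0 to 61.9 CPM in WT tumors, and from 74.7 to 103 CPM to 27.0 to 47.4 CPM in KO. Of 12 epithelial markers 2 were lower in each genotype, with medians of 0.02 and 0.03. The part of these other cell types in the members' result was not tested.

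Beyond the members, 70 other genes of the lineage were listed: transcription factors, other hormones, processing enzymes and granule proteins, nutrient sensors, and receptors of these hormones. The list was made with earlier results of these data known. Between genotypes edgeR called 0 of them at D0, D19, D80 and in tumor, with 14, 10, 10 and 2 at an unadjusted p below 0.05, and DESeq2 called 0. These were out of 53, 59, 56 and 38 tested. Of all genes tested, 1750 of 18175, 2213 of 19545, 1049 of 18899 and 1254 of 18961 were below that limit. In the tests of whether the genotypes changed differently edgeR also called 0, with 12 of 60, 7 of 58 and 4 of 59 at an unadjusted p below 0.05 for D19, D80 and tumor. Of all genes tested, 1643 of 20149, 1542 of 19668 and 2385 of 20391 were below that limit. DESeq2 called 3 of the list at D19, Foxa2, Mnx1 and Slc6a4, and 0 in the others. In tumors 31 of the 49 tested were lower and 4 higher in WT, where 13.5% of all genes tested were called lower and 8% higher. In KO 33 of 54 were lower and 6 higher, where 16.4% and 10.3% of all genes were called. The processing enzymes and granule proteins were the group with the highest share, with 12 of 15 lower in WT and 11 of 15 in KO. Pcsk1 and Pcsk2, the convertases that cut prohormones, had changes of -3.33 (SE 0.23) and -5.32 (SE 0.56) in WT. Cpe, the carboxypeptidase that trims them, and Ptprn2, a granule membrane protein, had changes of -2.91 (SE 0.13) and -2.79 (SE 0.26) in KO. Cckar, the cholecystokinin A receptor, fell by 4.67 (SE 0.41) in WT, and Htr3a, a serotonin-gated channel, had 77 to 236 counts in KO D80 libraries and at most 1 count in any KO tumor.

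A few lineage genes went the other way in tumors, at about the share of all genes called higher. Isl1, a homeobox factor of endocrine cells and neurons, rose from 1.05 to 1.75 CPM in WT D80 to 4.77 to 25 CPM in WT tumors, a change of 3.30 (SE 0.46), and by a change of 3.93 (SE 0.38) in KO. Slc18a1, the vesicular monoamine transporter of endocrine cells, was higher in both genotypes, with changes of 1.95 in WT (SE 0.31) and 1.57 in KO (SE 0.30). Iapp, the amylin precursor, rose by 4.01 (SE 0.76) in WT tumors to a mean of 1.91 CPM, and Cplx2, an exocytosis protein, rose by 1.57 (SE 0.21) in KO.

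Along the colon course fewer genes of the list were called. At D19, 13 of 56 tested were higher and 3 lower in WT, where 9.33% and 4.04% of all genes were called. In KO 5 of 57 were higher and 3 lower, where 8.95% and 2.52% of all genes were called, so both counts were near the share of all genes. No difference between roles was tested. In WT the transcription factors made up 6 of the 13, out of 14 tested, and Isl1 rose by 1.99 (SE 0.30), as Neurod1 did. Htr4, a serotonin receptor, rose by 1.09 (SE 0.11) and Npy1r, a receptor of the Pyy family, by 1.90 (SE 0.21) in WT D19. Secretin (Sct), Cckar and Npy4r, a pancreatic polypeptide receptor, had changes of -1.28 (SE 0.24), -1.43 (SE 0.30) and -1.09 (SE 0.31). In KO D19, the irritant channel Trpa1, the D-cell factor Hhex and the tachykinin precursor Tac1 had changes of 3.64 (SE 0.63), 1.95 (SE 0.35) and 1.46 (SE 0.34). The somatostatin receptor Sstr1, Cpe and Npy4r had changes of -2.0 (SE 0.35), -1.21 (SE 0.23) and -1.55 (SE 0.39) there.

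At D80, 7 of 56 were higher and 4 lower in WT, where 7.07% and 3.25% of all genes were called. In KO 4 of 56 were higher and 13 lower, where 13.4% and 7.63% of all genes were called. In KO, 5 of the 15 processing and granule genes and 6 of the 16 receptors and clearance genes tested were lower, beside the 7 members. Sct fell in both genotypes, from 9.87 to 16.6 CPM to 2.74 to 5.86 CPM in WT, a change of -1.91 (SE 0.32), and with a change of -2.48 (SE 0.32) in KO. In WT, Cckar and the galanin precursor Gal had changes of -1.77 (SE 0.31) and -1.26 (SE 0.27), whereas Npy1r, Htr4 and the homeobox factor Mnx1 rose by 1.88 (SE 0.24), 1.04 (SE 0.19) and 2.15 (SE 0.41). In KO, Cpe and Npy4r had changes of -1.31 (SE 0.16) and -1.6 (SE 0.25), and Hhex, Trpa1 and Slc18a1 rose by 1.85 (SE 0.21), 2.21 (SE 0.35) and 1.28 (SE 0.26). Within KO, the D-cell factor Hhex was higher at D19 and at D80 than at D0, while Sst was lower. Which cells of the whole colon held the Hhex transcripts was not tested.

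The last comparison asks how the members vary from mouse to mouse within a group. Over the 24 colon libraries, each with its group mean taken out, 13 relations of log2 CPM were tested with a two-sided permutation test of 100000 resamples. The L-cell hormones varied together. Pyy and Insl5 had Pearson's r of 0.93 (Spearman's rho 0.88; permutation p of 1e-05 each, the smallest these resamples can give, adjusted 0.00013). Without mice 581 and 811, which are also those farthest from the median of Pyy, r was 0.87. Gcg with Pyy had r of 0.79 (rho 0.69; permutation p adjusted 0.0025 and 0.00952), and 0.72 without the pair farthest from the median and 0.64 without mice 581 and 811. Gcg with Insl5 had r of 0.77 (rho 0.72; permutation p adjusted 0.00165 and 0.00559), with 0.70 and 0.60 for the same 2 omissions. Within title prefixes, over the 14 libraries that share one with another of their group, these values were 0.95 for Pyy with Insl5, 0.94 for Gcg with Pyy and 0.90 for Gcg with Insl5.

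Hoxb13, the distal colon marker, ran with Insl5 and Pyy. With Insl5 it had r of 0.70 (rho 0.69; permutation p adjusted 0.00165 and 0.00952), 0.62 without the 2 libraries farthest in Hoxb13, KO D0 mouse 872 and WT D0 mouse 927, 0.85 without mice 811 and 581, and 0.55 within prefixes. With Pyy it had r of 0.52 (rho 0.64; permutation p adjusted 0.0235 and 0.00952), 0.62 without the farthest pair, and 0.63 with an adjusted permutation p of 0.115 without mice 811 and 581. Within prefixes it was 0.46. The other 8 members had no relation with Hoxb13 that passed, such as Sst at r of 0.14 (rho -0.007; permutation p adjusted 0.663 and 0.979) and Nts at r of -0.60 (rho -0.45; permutation p adjusted 0.24 and 0.124). Gcg, the third L-cell hormone, had r of 0.22 with Hoxb13 (rho 0.24; permutation p adjusted 0.442 and 0.402), and whether that differs from the value of Insl5 was not tested.

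**Figure D5:**
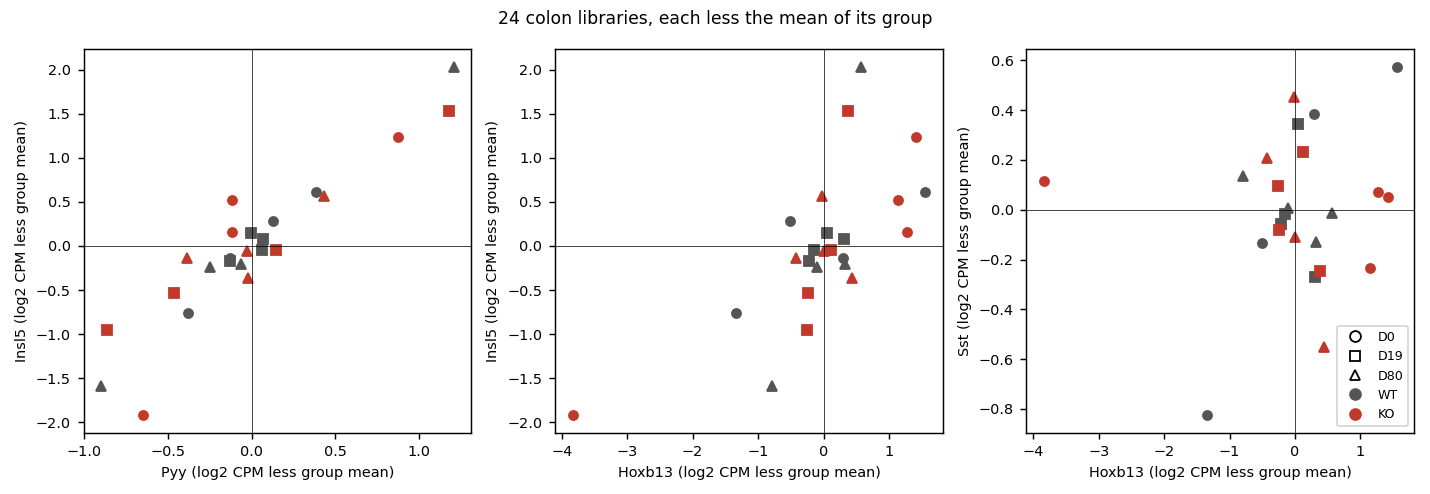
Each point is 1 of the 24 colon libraries, as log2 CPM less the mean of its group: Insl5 against Pyy (left), Insl5 against Hoxb13 (middle) and Sst against Hoxb13 (right); shape gives the stage and color the genotype. Pyy and Insl5 lie along a line (r of 0.93), Insl5 follows Hoxb13 (r of 0.70) with KO D0 mouse 872 at the lower left, and Sst does not (r of 0.14).

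As a description, Chga, Chgb, Tph1 and Neurod1 also varied together. Chga and Chgb had r of 0.94 over the same 24 libraries, 0.84 without mice 811 and 581, and Chga with Tph1 0.72 and 0.88. Neurod1 had r of 0.86 with Chga and 0.87 with Chgb, and 0.51 with each without those mice. Cck ran with Gcg (0.60) and Pyy (0.62), at 0.56 and 0.54 without them. Nts had a negative r with every other member over all 24 libraries, from -0.35 with Insl5 to -0.04 with Neurod1. Sst had r between -0.26 and 0.20 with the other members, and between -0.27 with Tph1 and 0.35 with Gcg without mice 811 and 581. Between the L-cell hormones and the granins the sign turned on those 2 libraries: Gcg went from -0.23 to 0.68 with Chga and from -0.40 to 0.69 with Chgb when they were left out. These points share libraries, and the libraries that stood apart set part of the spread of every gene.

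Among 16257 other genes with a mean of at least 1 CPM, those with the pattern most like Insl5 over the 24 colon libraries included Ggh (r of 0.96) and Sval1 (0.91), and without mice 811 and 581 these were 0.93 and 0.88. For Pyy they were Rnf130 (0.94), Ggh (0.92) and Ctss (0.91), and 0.86, 0.88 and 0.77 without those mice. For Chgb they were Asah2 (0.97), Arfgef3 (0.97) and Stim2 (0.96), which dropped to 0.58, 0.56 and 0.44. For Sst the nearest were less close and included Reep2 (0.75) and Cysltr1 (0.73), which were at 0.76 and 0.75 without those mice.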

How the data were processed

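Total RNA of whole colon and tumors was sequenced as 75-base single-end Illumina reads. Per the labels and the methods of the study, the authors checked reads with FastQC 0.11.5, aligned them to mm10 with STAR and counted them per gene with Subread on GENCODE M25; the strand setting is not given in the sources used here. The deposited values are raw counts per gene, with 18951121 to 47623288 counts per library, and every column belonged to a labelled sample. The members and all gene lists were chosen with earlier results of these data known.

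Counts were tested with edgeR 4.0.16 in R 4.3.3 (TMM scaling, filterByExpr, quasi-likelihood test, Benjamini-Hochberg adjustment over all genes tested), fitting only the groups compared. The edgeR and DESeq2 fits were tried on simulated counts for some of the comparisons, and the other steps were not. The SE is the log2 fold change divided by the square root of its F statistic. The call is an adjusted p below 0.05 and a fold above 2 in colon, and an unadjusted p below 0.01 and a fold above 2 between genotypes in tumor. Log2 fold changes are printed for members at an unadjusted p below 0.05. Levels are CPM with TMM factors over all 32 libraries, and CPM per kilobase uses the exon length of GENCODE M21 models on GRCm38, a release close to but not the same as that of the counts. Correlations used log2 CPM (prior count of 1). The source of separate mice is the mouse number in the titles, and p-values measure the spread between these mice.

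Besides all 10 members, up to 3 called genes of the lineage list with the smallest p in each direction of each comparison were named, with Hoxb13 and Dnase1l3 as context, and for the 3 members with the highest mean CPM in colon and for Sst the 3 genes of highest Pearson's r, some of which are not reported here. Foxa2, Mnx1, Slc6a4 and Chrna3 were named after their values were seen. Same-numbered D80 colon and tumor come from the same mouse, and their deviations from the group means correlated at 0.05 (WT 541), 0.10 (542), 0.25 (555), 0.14 (KO 527), 0.07 (543) and 0.16 (544) over 16244 genes. Alternatives were DESeq2 1.42.0, its size factors, no filter, a filter at a mean of 1 CPM, a single fit of all libraries, the title prefix or the mouse as a block, Hoxb13 as a covariate, and leaving out each library. The fit with Hoxb13 in the comparisons with D0, and the correlations without mice 811 and 581, were chosen after seeing the data.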

Additional observations from a re-analysis of the deposited data

Results flagged for a closer look

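In 7 of the 70 combinations of a member and a group of 4 or 5 libraries, a single library lay further from the others than Dixon's ratio allows, where chance gives about 1 in 20. Tumors of KO mice, with 3 libraries, were not examined in this way.

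KO D0 mouse 853 held 96.3 CPM of Gcg, when the other KO D0 libraries held 48.8 to 56.2 CPM, and 130.1 CPM of Chgb, when the others held 89.8 to 95.6 CPM. KO D80 mouse 535 was high for both granins, with 39.5 CPM of Chga against 20.8 to 21.9 CPM and 78.0 CPM of Chgb against 42.8 to 47.8 CPM. WT D80 mouse 581 held 207 CPM of Insl5, against 16.8 to 43.8 CPM in the rest of its group, and it is one of the libraries whose levels ran with exon length. KO D80 mouse 527 was low for Nts, at 0.851 CPM against 1.39 to 1.44 CPM. WT D19 mouse 805 was low for Tph1, at 15.8 CPM against 21.1 to 21.6 CPM.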

How the results depend on the processing

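Of 53 differences of members with an unadjusted p below 0.05, 2 changed sign under some alternative and 12 changed their call, 6 of them under an alternative other than leaving out a library. With Hoxb13 as a covariate, the changes of Pyy and Insl5 from D0 to D19 in WT turned to -0.14 and -0.28, 2 members were higher in that comparison and 0 were lower at D80 in WT, a fit in which 0 genes of any kind were called; the cause was not tested. With the title prefix as a block, 1 member was higher in KO at D0 (Insl5) and 2 in KO tumors (Gcg and Insl5, which turned from -0.49 and -0.25 to 2.04 and 2.43). A single fit of all 32 libraries called 1 member lower in KO tumors (Tph1) and 0 higher at D19 in WT. Leaving out each library in turn gave 0 to 1 members lower in KO tumors than in WT, 0 to 1 lower at D19 in KO, 1 to 2 lower at D80 in WT and 0 to 1 higher in KO tumors than in D80 colon. The correlation of Hoxb13 with Pyy was 0.63 with an adjusted permutation p of 0.115 without mice 811 and 581, that with Tph1 turned to 0.0397 there, and that with Cck turned to 0.22 without the 2 libraries farthest in Hoxb13. With the mouse as a replicate block, the pairing changed no call of a member between D80 colon and tumor, with 9 lower in WT, 8 lower in KO and 0 in their difference.

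Counts over all genes moved more, given here as higher and lower calls. Between genotypes, against 0 and 0 at D0, there were 27 and 13 with DESeq2, 52 and 14 without a filter, 11 and 0 in the single fit, 66 and 5 with the prefix block and 1 and 0 with Hoxb13. At D19 these were 222 and 98 with DESeq2 and 137 and 40 in the single fit, and at D80 they were 32 and 11 with DESeq2. In tumor, against 50 and 8, there were 151 and 32 with DESeq2, 218 and 30 without a filter, 30 and 0 with the stricter filter, 132 and 89 in the single fit and 47 and 134 with the prefix block. Along the course, Hoxb13 gave 761 and 698 at D19 in WT against 1733 and 750, and the single fit gave 2005 and 923 at D80 in WT against 1303 and 599. It gave 2450 higher in WT tumors against 1520, and the mouse block 1160 higher in KO tumors against 2006. For the genotypes' difference in change at D19, against 0 and 6, there were 68 and 101 with DESeq2, 2 and 19 without a filter and 3 and 20 in the single fit. At D80, DESeq2 gave 10 and 24 against 0 and 0, and in tumor the mouse block gave 0 and 1 against 0 and 0. The members with the fewest reads limit the tumor comparison, in which Neurod1 had 0 counts in 2 WT tumors. Sst had 1 to 18 counts and Cck 1 to 13 counts per tumor.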
